A study of Mus musculus with 6 samples.

Results

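Cycling endothelial cells (ECs) of mouse dorsal skin were taken as the Pecam1+ cells that carried the transcripts of several genes of a cell about to divide. A cell was counted as cycling when it held at least 1 UMI (unique molecular identifier, 1 captured transcript) of Pecam1, the endothelial adhesion molecule, none of Ptprc, the common leukocyte antigen, and a UMI of at least 3 of the 6 genes Mki67, Top2a, Cenpf, Ube2c, Birc5 and Pclaf. Of 9529 Pecam1+ cells without Ptprc in 4 wild-type (WT) libraries, 211 met this rule, a share of 2.21% (exact 95% interval 1.93 to 2.53%). That interval pools the cells of 4 mice and covers counting error only, not the spread between mice. By library the share was 2.36% ± 0.634 (SD, n = 4). They were compared with the 8410 Pecam1+ cells that held a UMI of none of the 6 genes. The members were chosen on measured UMIs of these 6 genes, so the levels of the 6 genes, and of the other genes of the cell cycle and of DNA replication named below, are given as a description with no p-value.

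Droplet single-cell RNA sequencing was performed on tdTomato+ cells sorted from back skin, 1 library per mouse. The WT mice carried tdTomato, Cdh5-CreERT2 and Krt14-H2BGFP on a C57BL/6;CD1 background, and 2 were taken at postnatal day (PD) 20, in telogen, the rest phase of the hair cycle, and 2 at PD 32, in anagen, its growth phase. The 2 Alk1 knockout (KO) libraries came from Alk1 flox/flox;tdTomato;Cdh5-CreERT2 mice on C57BL/6 at PD 25, again in telogen. All mice received tamoxifen at 200 µg/g on PD 17. Cdh5-CreERT2 is driven by the VE-cadherin promoter, so the sort holds any cell that had used that promoter when tamoxifen was given, together with its descendants, and stage is tied to the age of the mouse and to the time since labelling. The KO samples are named as KO by title and description while their genotype field reads wild type, and no WT library matches them in age or strain. The WT libraries held 32626434 and 43317677 UMIs in telogen and 35035677 and 29851591 in anagen, and those of the KO 10615358 and 11239445. Throughout, the 4 WT values are given in the order telogen S1, telogen S2, anagen S1, anagen S2.

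A vessel grows when endothelial cells that had been at rest re-enter the cell cycle. In G1 the D cyclins release E2F factors, whose targets copy the DNA in S phase, and in G2 and mitosis a second set of genes, read by the MuvB, B-Myb and FOXM1 complexes, builds the spindle and splits the chromosomes. In adult skin most ECs rest, and blood flow, Notch, and Alk1 and BMP signals are known to favour that state. Of the 6 genes, Pclaf encodes a PCNA-binding factor of replicating DNA and is an S phase gene, whereas Top2a untangles and Cenpf helps to attach the chromosomes in mitosis, Ube2c and Birc5 act in mitotic protein destruction and chromosome segregation, and Mki67 coats mitotic chromosomes.

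The promoters of the 6 genes differed in the letters they carried. RefSeq windows (GRCm38.p6) from 250 bases before to 50 after the start of the gene were found for all 6. The CHR element, searched as TTTGAA or TTCGAA on both strands, lay in 4 of the 6 windows (Mki67, Top2a, Cenpf and Ube2c) and in 19.2% of all 32851 promoter windows. The CCAAT box was in 5 of the 6 and in 37.4% of all windows. An E2F site, searched as GCGGGAAA, GCGCGAAA or GCGCCAAA on both strands, lay only in the window of Pclaf among the 6, against 1.84% of all windows. The window of Birc5 held none of these letters. CHR and CCAAT together were in 4 of the 6 windows, in 57.4% of the 47 windows of a list of G2/M genes that leaves the 6 out, and in 7.52% of all windows. Of the G2/M list, 42 of 48 genes were matched and 72.3% of their windows held a CHR and 6.38% an E2F site. A match describes letters and is not evidence that a factor bound there. The 160 bases from 150 before the start onwards are shown for the 5 genes with a match, 5′ to 3′ on the strand of the gene, with CHR, CCAAT and E2F letters in capitals, because they set Pclaf apart from the other 4. The Mki67 stretch is chr7:135716370-135716529 (minus strand), that of Top2a chr11:99024180-99024339 (minus), of Cenpf chr1:189688077-189688236 (minus), of Ube2c chr2:164769779-164769938 (plus) and of Pclaf chr9:65890173-65890332 (plus).
Mki67: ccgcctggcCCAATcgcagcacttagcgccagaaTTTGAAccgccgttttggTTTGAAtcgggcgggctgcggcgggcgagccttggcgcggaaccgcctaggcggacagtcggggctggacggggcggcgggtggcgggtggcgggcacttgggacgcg
Top2a: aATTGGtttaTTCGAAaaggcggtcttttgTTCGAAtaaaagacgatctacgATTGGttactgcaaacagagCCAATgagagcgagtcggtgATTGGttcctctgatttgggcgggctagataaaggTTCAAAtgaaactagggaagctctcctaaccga
Cenpf: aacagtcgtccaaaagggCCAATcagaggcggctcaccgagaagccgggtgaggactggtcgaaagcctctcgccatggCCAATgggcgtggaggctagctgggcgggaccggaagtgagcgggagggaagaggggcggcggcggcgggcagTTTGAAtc
Ube2c: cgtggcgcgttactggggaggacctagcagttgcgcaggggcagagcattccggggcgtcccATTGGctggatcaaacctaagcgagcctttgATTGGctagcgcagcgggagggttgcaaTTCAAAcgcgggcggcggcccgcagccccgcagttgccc
Pclaf: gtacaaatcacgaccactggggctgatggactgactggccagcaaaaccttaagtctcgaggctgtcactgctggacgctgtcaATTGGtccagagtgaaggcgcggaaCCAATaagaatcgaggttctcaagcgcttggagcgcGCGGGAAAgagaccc

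All 4 WT libraries held cycling ECs at similar shares, apart from anagen S2, where they were fewer. In telogen S1 29 of 1177 Pecam1+ cells were cycling (2.46%), in telogen S2 33 of 1238 (2.67%), in anagen S1 94 of 3286 (2.86%) and in anagen S2 55 of 3828 (1.44%). The exact intervals of the 2 anagen libraries, 2.32 to 3.49% and 1.08 to 1.87%, did not overlap, and the telogen values lay between those of anagen. The mean was 2.56% ± 0.143 (SD, n = 2) in telogen and 2.15% ± 1.01 (SD, n = 2) in anagen, a difference of -0.416 percentage points (exact two-sided permutation test, p = 1, where 2 mice against 2 cannot go below 0.33). The sign of this difference turned to 0.278 when likely doublets were removed and to 0.279 when cells with markers of other cell types were removed, and without anagen S2 it was 0.296. No cycling barcode was shared between libraries. These intervals cover counting error only.

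**Figure D1:**
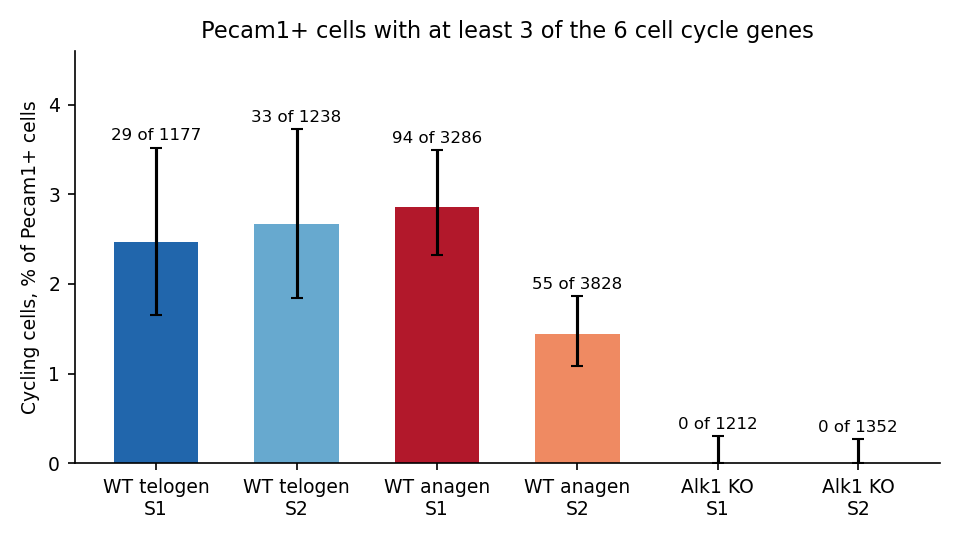
Share of Pecam1+ cells that were cycling in each library, in percent, with bars for the share, exact 95% binomial intervals as error bars, and the counts above. The 4 WT libraries lie between 1.44 and 2.86%, and no cycling cell was found in either KO library.

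The KO libraries held none. Of 1212 and 1352 Pecam1+ cells no cell had 3 of the 6 genes, so that 0 of 2564 cells allows a share of up to 0.117% by 3 counts (exact upper limit 0.144%), below the WT shares. Both limits pool the cells of the 2 KO libraries and cover counting error only. The most any of the 3671 KO cells that passed the filters held was 2 of the 6 genes, and 205 Pecam1+ cells held 1 and 7 held 2. In WT 798 held 1 and 110 held 2. Median depth was 4988 UMIs in KO and 5320.5 in WT cells with none of the 6 genes. Genotype, age, strain and library cannot be told apart here, and KO was not tested against WT.

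Most cycling ECs carried many transcripts of many of the 6 genes. All 6 were found together in 90 of the 211 cells, 5 in 48, 4 in 31 and 3 in 42. The next most common combinations were all but Pclaf in 17 cells and Mki67, Top2a and Pclaf in 15. Top2a was found in 188 cells (89.1%), Mki67 in 186 (88.2%), Birc5 in 183 (86.7%), Pclaf in 169 (80.1%), Cenpf in 156 (73.9%) and Ube2c in 148 (70.1%). The median number of UMIs of the 6 genes was 5 in cells with 3 of them and 50.5 in cells with all 6. Just outside the rule, the 110 cells with 2 genes had a median of 3 such UMIs, 18.7 S phase UMIs and 20.2 G2/M UMIs per 10000. Just inside it, the 42 cells with 3 genes had 30.6 S phase and 32.4 G2/M UMIs per 10000, whereas the cells with all 6 had 41.1 and 126.7. Inwards from the edge of the rule the G2/M level was higher by more than the S phase level.

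As counts summed per library and scaled to 1000000 UMIs (CPM), the 6 genes stood as follows. Mki67 stood at 399.9, 434, 471 and 388, Top2a at 503, 403, 518 and 484 and Cenpf at 402, 380.3, 454 and 311. Ube2c ranged most, at 755, 507, 576 and 306, with its lowest value in anagen S2. Birc5 stood at 521, 431, 483 and 421 and Pclaf at 377, 525, 391 and 356. By the rule all 6 were at 0 in the comparison cells.

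The cells carried endothelial genes that the rule did not use. The Cdh5 promoter drove the labelling for the sort, however, and such genes do not tell a single EC from a doublet. Doublet scores and markers of other cell types are given below. Cdh5, which encodes VE-cadherin, had a UMI in 201 of the 211 cells (95.3%), and the median cycling cell held 14 of 18 endothelial markers, against 12 in cells with none of the 6 genes. All but 1 of the cycling cells held at least 3 of the 18. When each cell was thinned to 1500 UMIs, 66.2% of 207 cycling cells, 60.8% of the comparison cells and 2.58% of the Ptprc+ cells of the same libraries, which should lack it, showed Cdh5. Before thinning, and with the shallower cells included, the median depths of these 3 kinds of cell were 11045, 5320.5 and 12119.5 UMIs. Cycling ECs were deeper than the comparison cells, and a deeper cell meets the rule more easily. When the rule was applied to thinned cells, 73 cells met it, at 1.34, 1.05, 1.44 and 0.684% of the cells deep enough, and anagen S2 was again lowest.

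Summed fibroblast, macrophage, perineurial and erythroid markers were lower in cycling ECs in all 4 libraries, and markers of other cell types went both ways. The 7 fibroblast markers summed to 129, 1197, 105 and 186 CPM in cycling cells and to 2161, 2750, 382 and 833 CPM in cells with none of the 6 genes, with Col3a1 the most abundant of them in telogen S1. The 10 macrophage markers summed to 124, 132, 54.7 and 19.2 CPM against 197, 254, 106 and 42.6. The 10 pericyte markers summed to 292, 1078, 224 and 504 CPM against 1142, 1120, 389 and 298, and were higher in cycling cells in anagen S2 only. The 6 lymphocyte markers were at 0 in cycling cells of telogen S1 and of both anagen libraries. In telogen S2 Schwann cell markers summed to 76.1 CPM in cycling cells against 33.3 and mast cell markers to 68.5 against 58.9, and adipocyte markers stood at 20.3 against 4.95 CPM there and at 16.7 against 2.80 in anagen S1. Cells with at least 2 macrophage markers made up 20.7, 45.5, 2.13 and 1.82% of cycling cells against 9.22, 19.3, 3.10 and 0.370% of the others, while cycling cells were also deeper. By library, 14, 6, 8 and 2 cycling cells, 30 in all (14.2%), were among the top 5% of doublet scores. These were 48.3, 18.2, 8.51 and 3.64% of cycling cells against 3.14, 3.81, 3.53 and 4.61% of cells with none of the 6 genes, higher in 3 of 4 libraries. At least 2 markers of one other cell type were held by 11, 22, 12 and 7 cycling cells, 37.9, 66.7, 12.8 and 12.7% against 31.0, 39.6, 15.1 and 9.17%, again higher in 3 of 4. Results were also computed without each of these 2 sets of cells.

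The capillary class was the largest among cycling ECs in each library, though not in telogen S1 once likely doublets were removed, and the artery and lymphatic classes were small. Each cell was thinned to 1500 UMIs and given the vessel class with the most of 8 markers found, with at least 2 and no tie, so that a class is a range of a marker count and not a cell type. Of 207 cycling cells deep enough, 119 fell in the capillary class, 31 in the vein class, 18 in the artery class, 8 in the lymphatic class and 31 in none. The capillary class took 57.1, 42.4, 73.6 and 40.0% of cycling cells and 32.9, 32.2, 46.5 and 30.3% of cells with none of the 6 genes. It was higher in cycling cells in 4 of 4 libraries, at 53.3% ± 15.5 (SD, n = 4) against 35.5% ± 7.43, a difference of 17.8 percentage points (exact two-sided paired permutation test, p = 0.13, the smallest that 4 libraries can give). Without anagen S1, where the capillary share was highest, the mean in cycling cells was 46.5%. By marker counts in thinned cells the class held under 50% of cycling cells in telogen S2 and anagen S2. With likely doublets removed the mean was 45.4% and the difference 10.1 points, higher in 3 of 4. In telogen S1 4 of the 14 cycling cells then left were capillary (28.6%, against 33.0% of the comparison cells) and 5 were vein. With at least 3 markers required the mean was 43.1%. With classes from summed UMIs the mean was 81.9% against 57.4%, with 78.8% of cycling cells in telogen S2 and 70.9% in anagen S2. Without thinning the mean was 60.8% against 36.6%. By both of these rules the share was higher in cycling cells in 4 of 4 libraries. The artery class took 7.14, 3.03, 9.89 and 10.9% of cycling cells against 15.0, 14.4, 14.8 and 19.5%, lower in all 4 libraries, a difference of -8.18 points (exact permutation p = 0.13, n = 4).

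The lymphatic class held 3.57, 6.06, 0 and 9.09% of cycling cells against 18.7, 17.5, 7.13 and 5.21%. It was lower in cycling cells in 3 libraries and higher in anagen S2, with a mean difference of -7.45 points (exact permutation p = 0.25, n = 4). The vein class went both ways. It held 21.4, 33.3, 4.40 and 18.2% of cycling cells against 8.92, 11.6, 11.5 and 23.1%, so that it was higher among cycling cells in both telogen libraries and lower in both of anagen. Over all 4 the difference was 5.55 points (exact permutation p = 0.5, n = 4). When the class was taken from summed UMIs instead of marker counts it was -5.51, and the vein class was lower in cycling cells in all 4 libraries, at 3.45% against 8.51% in telogen S1 and 9.09% against 10.1% in telogen S2. Among cycling cells the mean vein share was 27.4% in telogen and 11.3% in anagen (exact permutation p = 0.33, the smallest possible with 2 against 2). From summed UMIs these shares were 6.27 and 6.83%, so that the stage contrast was not seen with that class rule. The calls rest on few transcripts, since 9 of 28, 13 of 33, 12 of 91 and 22 of 55 cycling cells had their class by a lead of 1 marker.

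**Figure D2:**
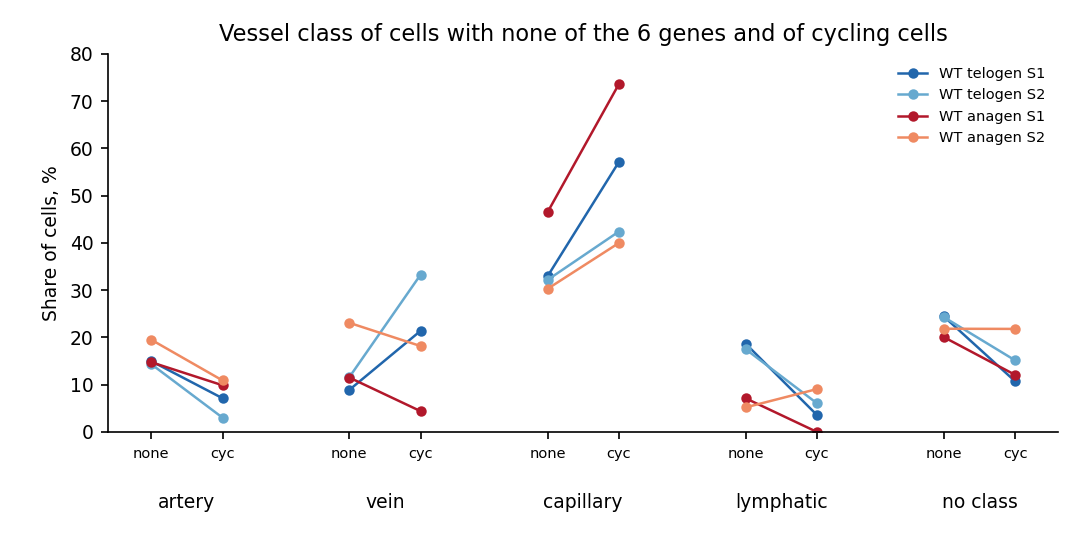
Share of cells in each vessel class, in percent, for Pecam1+ cells with none of the 6 genes (none) and cycling cells (cyc), with 1 line per WT library. The capillary lines all rise from none to cyc and the artery lines all fall, whereas the vein lines rise in the 2 telogen libraries and fall in the 2 anagen libraries.

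Read the other way, the capillary class had 4.15, 3.54, 4.45 and 2.01% cycling cells and the artery class 1.2, 0.613, 1.94 and 0.871%, lower than the capillary class in every library. Of the vein class 6 of 114 (5.26%) and 11 of 146 cells (7.53%) were cycling in telogen, and 4 of 360 (1.11%) and 10 of 837 (1.19%) in anagen. The exact interval of telogen S2 (3.82 to 13.1%) lay above those of both anagen libraries (0.304 to 2.82% and 0.574 to 2.19%). That of telogen S1 (1.96 to 11.1%) overlapped both. Such intervals cover counting error within a library and not the spread between mice, so they do not test the stages. With classes from summed UMIs 1 of 98, 3 of 119, 6 of 310 and 4 of 765 vein cells were cycling (1.02, 2.52, 1.94 and 0.523%), the intervals of telogen overlapped those of anagen, and the contrast between stages was not seen. The vein class was also deeper than the capillary class, at medians of 8894, 7290, 8212 and 6912 UMIs against 6508.5, 5626.5, 6438 and 4748. In the lymphatic class 0.510, 1.03, 0 and 2.70% were cycling, which is 1, 2, 0 and 5 cells.

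By phase, cycling ECs leaned to G2/M. Phase was read from 44 S phase genes and 48 G2/M genes, leaving the 6 rule genes out. Most of the 6 are themselves genes of G2 and mitosis, so the lean is in part fixed by the rule. The S phase genes summed to 3657, 4409, 3412 and 4193 CPM in cycling cells and the G2/M genes to 9036, 8778, 10595 and 7674 CPM. The ratio of S to G2/M was 0.405, 0.502, 0.322 and 0.546, and in cells with none of the 6 genes it lay between 0.624 and 0.700. It was lowest and highest in the 2 anagen libraries, with telogen between. The means were 0.454 ± 0.0690 (SD, n = 2) in telogen and 0.434 ± 0.159 (SD, n = 2) in anagen, a difference of -0.0194 (exact two-sided permutation p = 1, smallest possible 0.33), and its sign turned to 0.0457 without cells that held markers of other cell types and to 0.00518 with no upper limit on genes per cell. Without telogen S2 it was 0.0294 and without anagen S1 0.0928. With likely doublets removed, which left 15 cycling cells in telogen S1, the means were 0.563 in telogen and 0.416 in anagen, a difference of -0.147 (exact permutation p = 0.33, the smallest possible).

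In single cells thinned to 1500 UMIs, 155 of 207 cycling cells held more G2/M than S phase UMIs, 44 held more S and 8 as many of each. The G2/M list was also the higher in cells with none of the 6 genes, at 11.7 against 7.86 UMIs per 10000 before thinning. The split is therefore not a share of cells in each phase. By library the cells with more G2/M numbered 22 of 28, 22 of 33, 74 of 91 and 37 of 55. The share with more S phase UMIs was 24.4% in telogen and 21.3% in anagen, and 38.1 and 21.0% with likely doublets removed (exact permutation p = 0.33, n = 2 and 2). Pclaf, the S phase gene among the 6, went with this split. Of the 40 cycling cells without a Pclaf UMI 1 held more S phase UMIs, and of the 167 with one 43 did. Cells at the edge of the rule were the more mixed, with 15 of 39 cells with 3 genes on the S side and 19 on the G2/M side, whereas in cells with all 6 genes it was 10 and 79 of 90. These splits use the genes of the rule and are descriptions.

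**Figure D3:**
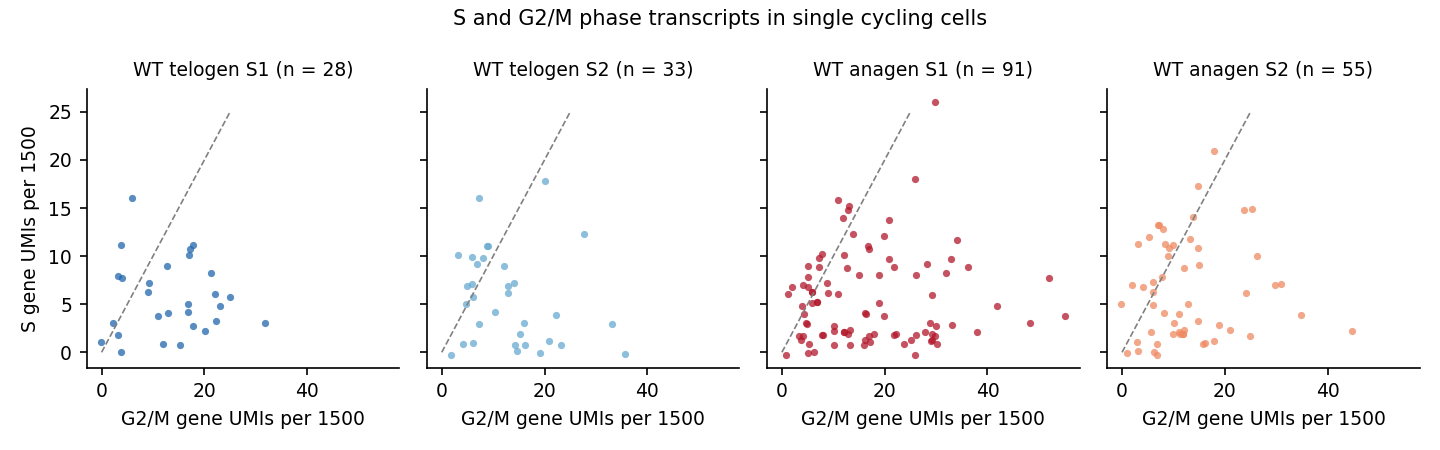
UMIs of the S phase list against UMIs of the G2/M list in each cycling cell thinned to 1500 UMIs, 1 panel per WT library, with a small random shift so that points do not cover each other and a dashed line where the 2 counts are equal. Most points lie to the right of the line, 155 of 207 in all, and 44 lie above it.

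Most cyclins stood higher in cycling ECs, and Ccnd2 lower. As log2 differences against cells with none of the 6 genes, the median was 2.89 over the 44 S phase genes and 5.74 over the 47 G2/M genes measured, all positive, and -0.05 over all 10996 genes tested. Ccna2, the cyclin of S and G2, stood at 149.7, 147, 157 and 108 CPM against 0, 0.798, 0.204 and 0.0532 CPM. Ccnb1, the mitotic cyclin, stood at 105, 104, 122 and 42.3 CPM against 0.301, 0.319, 0.51 and 0.213 CPM, with its lowest cycling value in anagen S2. Ccne1, which opens S phase, stood at 9.35, 15.2, 21.3 and 34.6 CPM against 1.5, 1.60, 0.968 and 0.426 CPM. Of the D cyclins that drive G1, Ccnd1 was higher in every library, at 316, 325, 309 and 206 CPM against 93.8, 110.1, 177 and 137 CPM. Ccnd2 stood at 37.4, 76.1, 37.1 and 55.8 CPM in cycling cells and 189, 203, 177 and 168 CPM in the others, lower in 4 of 4 libraries and without overlap (log2 difference -1.92). Of the 12 cyclins and CDKs measured, 10 had a positive difference. These genes belong to the programme the rule selects on and were not tested.

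Outside the cell cycle lists, 1516 of 10996 genes rose (13.8%) and 1419 fell (12.9%) in cycling ECs against cells with none of the 6 genes, by the quasi-likelihood test of edgeR on counts summed per library and state with library as a block (called at an adjusted p below 0.05, Benjamini-Hochberg, with at least a 1.3-fold difference). Sums over cells cannot tell fewer cells of a type from less RNA per cell. Since vessel classes and depth differed between the states, counts of some lists are also given for the capillary class alone or at matched depth. In cells of the capillary class alone 839 genes rose and 664 fell of 8742. Against comparison cells matched in depth 800 rose and 772 fell of 6667. The matched set held 10, 66, 282 and 110 comparison cells by library, few of them in telogen S1. Without anagen S1, which gave the most cells, 990 rose and 939 fell. The largest rises outside the lists were again cell cycle genes, among them Cdca5, a cohesin regulator (log2 difference 9.86), and Hist1h1b, a linker histone (9.09). The largest fall was of Hba-a1, a globin gene (-6.51), a transcript of red cells. With at least 2 of the 6 genes it was -1.60 and Hbb-bs -3.10, neither called. Without cells that held markers of other cell types, red cells among them, Hbb-bs was the 1 globin gene still tested and was not called (-1.10, adjusted p = 0.25, edgeR). Hbb-bs is itself among those markers, so that setting removes cells by the gene tested. Of the markers of other cell types, 5 of 5 fibroblast and 4 of 4 globin genes tested fell, 1 of 7 macrophage markers fell, and none of 10 pericyte markers was called. Genes low in both states were not tested, so a marker could enter through the comparison cells alone, where it was high. Erythroid markers summed to only 9, 18, 10 and 0 UMIs in cycling cells. The counts of these lists are therefore descriptions.

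Few general endothelial markers were called, and Cldn5 was lower. Of 18 tested, 0 rose and 2 fell, with a median of -0.18, and the 13.8 and 12.9% of all genes that rose and fell set the background for this and the following lists. Cdh5 stood at 617, 593, 753 and 534 CPM against 682, 727, 768 and 653 CPM, lower in all 4 libraries yet not called (-0.21 ± 0.12 (SE), adjusted p = 0.22, edgeR quasi-likelihood test). Cldn5, the claudin of endothelial tight junctions, stood at 201, 339.8, 464 and 575 CPM in cycling cells and at 1721, 1743, 1125 and 1173 CPM in the others. The states did not overlap, and Cldn5 fell (-1.91 ± 0.24 (SE), adjusted p = 5.9e-05, edgeR quasi-likelihood test). Ptprb, the phosphatase VE-PTP, was the other that fell (-0.64), but it was -0.27 and not called at matched depth. In the capillary class alone 4 of the 18 fell, Cdh5 among them (-0.49). Tie1, an orphan receptor of the angiopoietin pathway, did not pass (-0.34), but fell under 5 other settings, among them without telogen S1 (-0.48) and without cells that held markers of other cell types (-0.52), and was at 0.08 at matched depth.

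Most artery and lymphatic markers fell. Of 8 artery markers 7 fell and none rose (median -1.03). Gja4, the gene of connexin 37, a gap junction protein, stood at 140.3, 96.3, 95.4 and 117 CPM against 220.5, 214, 191 and 248 CPM, without overlap (-0.99 ± 0.14 (SE), adjusted p = 1.7e-04, edgeR). Sema3g fell by 1.81, Stmn2 by 1.81 and the elastic fibre protein gene Fbln5 by 1.26 on the log2 scale. In the capillary class alone 6 of 7 artery markers were called lower. A cell entered that class by its counts of the artery, vein, capillary and lymphatic markers, so values of these markers within it are descriptions. Against cells matched in depth 2 of 7 artery markers fell (median -0.30), with Gja4 at -0.21 and Sema3g at -1.21, neither called. Of 8 lymphatic markers 6 fell (median -1.77), with 2 of 5 in the capillary class and 0 of 7 at matched depth (median -0.77). Prox1, the master regulator of lymphatic identity, stood at 7.02, 81.1, 10.2 and 21.1 CPM against 312, 355, 113 and 67.3 CPM and fell by 2.92 on the log2 scale. In the capillary class it was -1.35 and at matched depth -1.67 (adjusted p = 0.051, edgeR), and Ccl21a, the chemokine of lymphatic vessels, was -1.25 at matched depth (adjusted p = 0.23), none of them called. The highest cycling value of Prox1, in telogen S2, lay above the lowest comparison value, in anagen S2.

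Of 8 vein markers 2 fell, Vcam1 (-1.36, and 0.32 in the capillary class alone) and Lrg1 (-0.63), with a median of -0.57. Ackr1 was not called (-0.97) but fell without telogen S2 (-1.79), in the capillary class alone (-1.36) and without cells that held markers of other cell types (-1.53, adjusted p = 0.017, edgeR). Of 8 capillary markers Gpihbp1 rose and Car4 and Tcf15 fell, with a median of -0.23. The call of Car4, a carbonic anhydrase gene, was lost without telogen S1 (-0.93), without telogen S2 (-0.74), with at least 4 of the 6 genes (-0.84) and without cells that held markers of other cell types (-0.90). Gpihbp1, which carries lipoprotein lipase to the capillary surface, stood at 507, 492, 1019 and 599.8 CPM against 389, 487, 737 and 353 CPM, higher in each library (0.39 ± 0.13 (SE), adjusted p = 0.038, edgeR). Its call was lost without telogen S1 (0.37), anagen S1 (0.36) or anagen S2 (0.30), in the capillary class alone (-0.35), without likely doublets (0.30), without cells that held other markers (0.26), and in DESeq2, and with the rule applied to thinned cells it was -0.95. Fabp4, the fatty acid carrier, stood at 9296, 10327, 11912 and 3136 CPM against 9723, 10684, 12182 and 6256 CPM and did not pass (-0.30 ± 0.16 (SE), adjusted p = 0.19, edgeR). Fabp4 fell, however, with the rule applied to thinned cells (-0.96) and with no filter on low counts (-0.38). Rgcc (-0.30), a regulator of the cell cycle that marks skin capillaries, and Cd36 (-0.15), the fatty acid translocase, did not pass either. Yet Rgcc fell with likely doublets removed (-0.56, adjusted p = 0.0092, edgeR) and with no upper limit on genes per cell (-0.47). It also fell with no filter on low counts (-0.39) and with the rule applied to thinned cells (-1.63). Within the capillary class alone, however, 6 of the 8 capillary markers fell, Rgcc by 0.75, Cd36 by 0.73 and Fabp4 by 0.70 on the log2 scale, while at matched depth Rgcc was at 0.04 and Cd36 at 0.15. The class was set by the artery, vein, capillary and lymphatic markers in thinned cells of both states, so values of all these markers within it are descriptions.

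**Figure D4:**
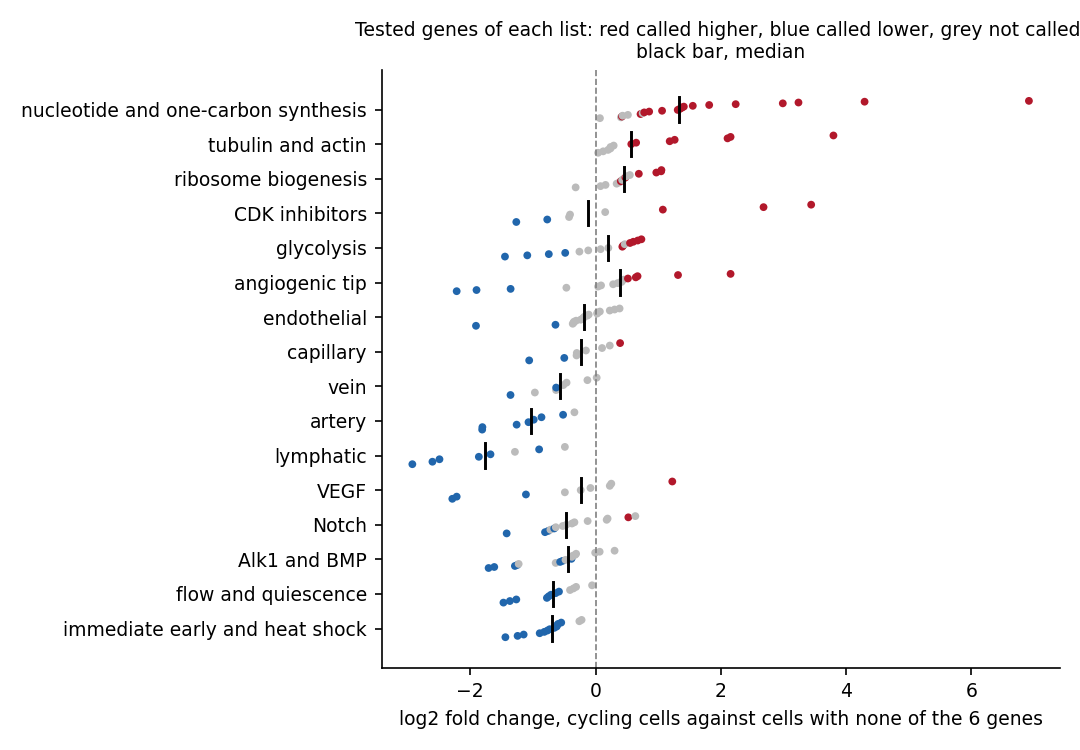
Log2 difference of cycling ECs against cells with none of the 6 genes for each tested gene of 16 lists, 1 point per gene, with the median of each list as a black bar. Red points were called higher, blue lower and grey were not called by edgeR, and the nucleotide list lies to the right of 0 while artery, lymphatic, flow and immediate early genes lie to its left.

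Genes of sprouting vessels moved in opposite directions. Of 16 genes of the angiogenic tip list 5 rose and 3 fell (median 0.38). Apln, the peptide apelin that sprouting ECs release, stood at 39.8, 20.3, 56.5 and 9.61 CPM against 1.65, 7.66, 15.4 and 3.51 CPM and rose (2.16 ± 0.40 (SE), adjusted p = 0.0013, edgeR). It was higher in each library, and the highest comparison value, in anagen S1, exceeded the lowest cycling value, in anagen S2. Its receptor gene Aplnr stood at 143, 226, 108 and 96.1 CPM against 59.8, 73.9, 74.5 and 70.4 CPM and rose by 0.94 on the log2 scale, without overlap. The basement membrane genes Nid2 (1.32), Col4a1 (0.67) and Col4a2 (0.64) rose as well, but in the capillary class alone Aplnr (0.24), Col4a1 (0.18) and Col4a2 (0.11) were not called. Nid2 stood at 103, 73.5, 125 and 61.5 CPM against 37.9, 40.4, 38.6 and 28.6 CPM, without overlap.

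Angpt2, the antagonist ligand of Tie2, fell instead, at 25.7, 60.9, 14.8 and 11.5 CPM against 84.6, 90.8, 48.3 and 38.2 CPM (log2 difference -1.36), and it was not called at matched depth (-0.82) or in the capillary class alone (-0.01). Pgf, a ligand of the VEGF receptor Flt1, fell by 2.22 on the log2 scale. Esm1, a tip cell marker, was unevenly spread, at 63.1, 2.54, 71.3 and 23.1 CPM against 13.1, 15.8, 90.5 and 9.85 CPM, and did not pass (0.42 ± 0.41 (SE), adjusted p = 0.5, edgeR). In the capillary class 2 rose and 1 fell of 15, and at matched depth 4 rose and 1 fell of 14.

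In the VEGF family the ligands differed and the receptors did not pass. Of 9 genes Vegfb rose and Vegfa, Vegfc and Pgf fell (median -0.24). Vegfa, the main growth factor of vessels, stood at 4.68, 5.07, 10.2 and 11.5 CPM against 47.8, 59.2, 38.3 and 29.8 CPM, without overlap (-2.29 ± 0.29 (SE), adjusted p = 5.9e-05, edgeR). Vegfb stood at 44.4, 48.2, 36.1 and 57.7 CPM against 20.0, 22.5, 18.2 and 17.1 CPM and rose by 1.23 on the log2 scale. The receptor genes Kdr (0.23), Flt1 (-0.24) and Flt4 (-0.49) were not called. In the capillary class alone Vegfa was -1.67 and not called (adjusted p = 0.066, edgeR), and at matched depth Vegfc was -0.58 and not called. In the Notch list 1 of 15 genes rose and 4 fell (median -0.47). The receptor gene Notch1 stood at 140.3, 124, 157 and 131 CPM against 242, 239, 211 and 182 CPM and fell by 0.66 on the log2 scale, and the ligand gene Jag1 fell by 1.42. Dll4, the ligand of tip cells, did not pass (-0.47). Nrarp, a feedback target, rose (0.52), at 58.5, 68.5, 101 and 96.1 CPM against 55.8, 51.5, 68.1 and 48.4 CPM, but not without anagen S1 (0.49) or anagen S2 (0.39), without likely doublets (0.42), at matched depth (0.59), in the capillary class (0.43) or by DESeq2 (0.49).

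Of 18 genes of the Alk1 and BMP list 8 fell and none rose (median -0.43), with 4 of 16 in the capillary class and 1 of 12 at matched depth. Acvrl1, which encodes Alk1, stood at 147, 81.1, 84.3 and 88.4 CPM against 145, 132, 137 and 157 CPM. It was level in telogen S1 and lower in the other 3 libraries (-0.56 ± 0.17 (SE), adjusted p = 0.023, edgeR). Its call was lost without telogen S2 (-0.52), anagen S1 (-0.51) or anagen S2 (-0.45), at matched depth (-0.46) and in the capillary class (-0.42). Bmpr2, its partner receptor, fell by 0.38 on the log2 scale, a call lost without the same libraries (-0.35, -0.42 and -0.35), without cells that held other markers (-0.39), at matched depth (-0.28) and in the capillary class (-0.20). Its target Tmem100 fell by 1.29, while the co-receptor Eng did not pass (0.30). Of 12 genes of flow response and quiescence 8 fell and none rose (median -0.67), with 7 in the capillary class and 3 of 11 at matched depth. Klf4, a transcription factor induced by laminar flow, stood at 341, 319, 279.7 and 367 CPM against 1117, 963, 779 and 751 CPM, without overlap (-1.47 ± 0.13 (SE), adjusted p = 1.3e-06, edgeR). Klf2, its paralog, fell by 0.75 on the log2 scale and was at 0.07 against cells matched in depth and at -0.31 in the capillary class, neither called. Nos3, the endothelial nitric oxide synthase, fell by 0.78 (-0.58 and not called at matched depth) and S1pr1, the sphingosine phosphate receptor, by 0.64.

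CDK inhibitors split. Cdkn1c (p57), held high in resting cells, stood at 32.7, 40.6, 25.0 and 30.8 CPM against 80.7, 98.3, 68.2 and 55.9 CPM and fell by 1.26 on the log2 scale, as did Cdkn1a (p21) by 0.77. Cdkn1b (p27) did not pass (-0.41). Cdkn2c (p18), an inhibitor of Cdk4 and Cdk6, stood at 98.2, 81.1, 132 and 61.5 CPM against 10.2, 6.70, 8.66 and 8.46 CPM, a log2 difference of 3.44, and Cdkn2d (p19) and Rbl1 (p107) were at 1.07 and 2.68. These 3 genes are known to be made in cycling cells, so they overlap in programme with the rule. Of the 8 genes of this list tested, 3 rose and 2 fell.

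Most genes that feed DNA synthesis and the spindle were higher in cycling ECs, and since cells were selected for transcripts of that programme, the counts of these lists are descriptions. Of 22 genes of nucleotide and one-carbon synthesis 17 rose and none fell (median 1.33), with 12 of 20 in the capillary class and 11 of 16 at matched depth. Tk1, thymidine kinase, stood at 185, 145, 156 and 156 CPM against 1.95, 1.44, 1.17 and 0.958 CPM, a log2 difference of 6.92. Dut was at 3.24, and away from DNA itself the serine synthesis gene Psat1 at 2.99 and the mitochondrial folate enzyme gene Mthfd2 at 2.24. Of 13 tubulin and actin genes 7 rose and none fell. Stmn1, the microtubule regulator stathmin, stood at 1515, 1255, 1548 and 1636 CPM against 142, 148, 96.5 and 60.7 CPM, and Tuba1b and Tubb5 were at 2.11 and 2.16 as log2 differences. Tk1, Dut, Stmn1 and these tubulins are known to be made in dividing cells, so they overlap in programme with the rule.

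Of 15 genes of ribosome biogenesis 6 rose and none fell (median 0.45), among them the nucleolar genes Nop56 (0.97) and Dkc1 (1.05). Of 93 ribosomal protein genes 2 rose and 2 fell, with a median of 0.03. Of 93 genes of oxidative phosphorylation 50 rose and none fell (median 0.41), with 22 of 92 in the capillary class and 24 of 86 at matched depth, and 0 up and 2 down of 86 with the rule applied to thinned cells, where 1.91% of all genes tested rose and 5.52% fell. Atp5g2, a subunit of ATP synthase, stood at 886, 761, 685 and 727 CPM against 342, 366, 429 and 473 CPM and rose by 0.91 on the log2 scale. With the rule on thinned cells Atp5g2 was at 0.29 and not called. Glycolysis split within the pathway, with 6 up and 4 down of 15. Tpi1 (0.73) and Gapdh (0.67) rose, and with the rule on thinned cells they were at -0.20 and -0.17. Gapdh was also not called at matched depth (0.39). The glucose transporter gene Slc2a1 (-0.75) and Pfkfb3 (-1.09), which sets the flux, fell, Slc2a1 not without anagen S2 (-0.56) or cells that held other markers (-0.53). Aldoa, aldolase, stood at 140.3, 137, 149 and 156 CPM against 378, 331, 423 and 431 CPM, without overlap (-1.45 ± 0.13 (SE), adjusted p = 1.6e-06, edgeR).

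Immediate early and heat shock genes, which tissue digestion is known to induce, fell in 12 of 14 cases with none up (median -0.70), in 9 in the capillary class and in 7 at matched depth. Fos stood at 1335, 1450.3, 1302 and 1373 CPM against 2524, 1997, 2127 and 1902 CPM, without overlap (-0.66 ± 0.11 (SE), adjusted p = 6.1e-04, edgeR), but in the capillary class alone it was -0.37 and not called (adjusted p = 0.084). Atf3 fell by 1.15 and the chaperone gene Hspa1a by 1.44 on the log2 scale. Of 16 interferon response genes 4 fell and none rose, and of 10 targets of p53 4 fell and none rose, Cdkn1a among them.

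Stage was not used by the rule, and between anagen and telogen few genes differed in cycling ECs. Of 6066 genes tested 0 rose (0.0%) and 1 fell in anagen (0.0165%), by the quasi-likelihood test of edgeR over 2 mice against 2. At an unadjusted p under 0.05 there were 523, and DESeq2 called 8 higher and 6 lower. In cells with none of the 6 genes 502 of 13698 genes rose (3.66%) and 639 fell (4.66%). In counts simulated with 200 genes changed 2-fold, this test recovered 7.5% of them in cycling cells and 46.5% in the other cells. With 1 library left out and the lone library of its stage assumed to vary like the others, cycling cells gave 176 calls without telogen S1, 93 without telogen S2, 61 without anagen S1 and 186 without anagen S2, and the other cells 44, 29, 3133 and 2255. The gene that fell was Ackr1, the chemokine-binding receptor of venules. It stood at 285, 373, 27.8 and 23.1 CPM in cycling cells, high in both telogen libraries and low in both of anagen, and fell (-3.64 ± 0.27 (SE), adjusted p = 0.0016, edgeR). With the rule at 2 of 6 genes it was -1.96 and did not pass (adjusted p = 0.076). In cells with none of the 6 genes it stood at 212, 204, 202 and 364 CPM, highest in anagen S2.

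The stage difference itself differed between the states for 89 genes. In the test of the interaction in edgeR 33 of 12046 genes had a higher difference in cycling cells (0.274%) and 56 a lower one (0.465%), and DESeq2 called 6 and 17. Ackr1 was among them, with a difference of -4.03 ± 0.30 (SE), adjusted p = 3.3e-10 (edgeR), and it was called when any 1 library was left out. Selp, the P-selectin of venules, stood at 619.7, 974, 58.4 and 236 CPM in cycling cells and at 373, 418, 311 and 783 CPM in the others. It was highest in cycling cells of telogen and, in the others, in anagen S2, and the 2 stage differences were apart by -3.11 ± 0.24 (SE), adjusted p = 5.1e-10 (edgeR). The venous markers Sele (-2.12), Vwf (-1.66) and Lrg1 (-1.17) had lower stage differences in cycling cells too, so that 5 of 8 vein markers did. Sele was not called without anagen S2 (-1.02) or by DESeq2 (-2.26), and Lrg1 not without telogen S1 (-0.78) or anagen S2 (-1.12). Without cells that held markers of other cell types neither Vwf (-1.14, adjusted p = 0.094) nor Lrg1 (-0.83, adjusted p = 0.23) was called by edgeR. The other 3, Vcam1 (-1.40), Ephb4 (0.28) and Icam1 (-0.63), did not pass.

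These venous values rest on few cells. An Ackr1 UMI was found in 8 of 29 and 11 of 33 cycling cells in telogen and in 4 of 94 and 5 of 55 in anagen, and after thinning in 14.3, 21.2, 2.20 and 1.82%. The richest single cell held 31.1, 34.7, 70.0 and 41.7% of the Ackr1 UMIs of cycling cells of its library. For Selp the richest cell held 52.1, 56.0, 33.3 and 96.7%. The vein class held 6, 11, 4 and 10 cycling cells. The vein share and these markers are read from the same transcripts and are not separate measures.

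**Figure D5:**
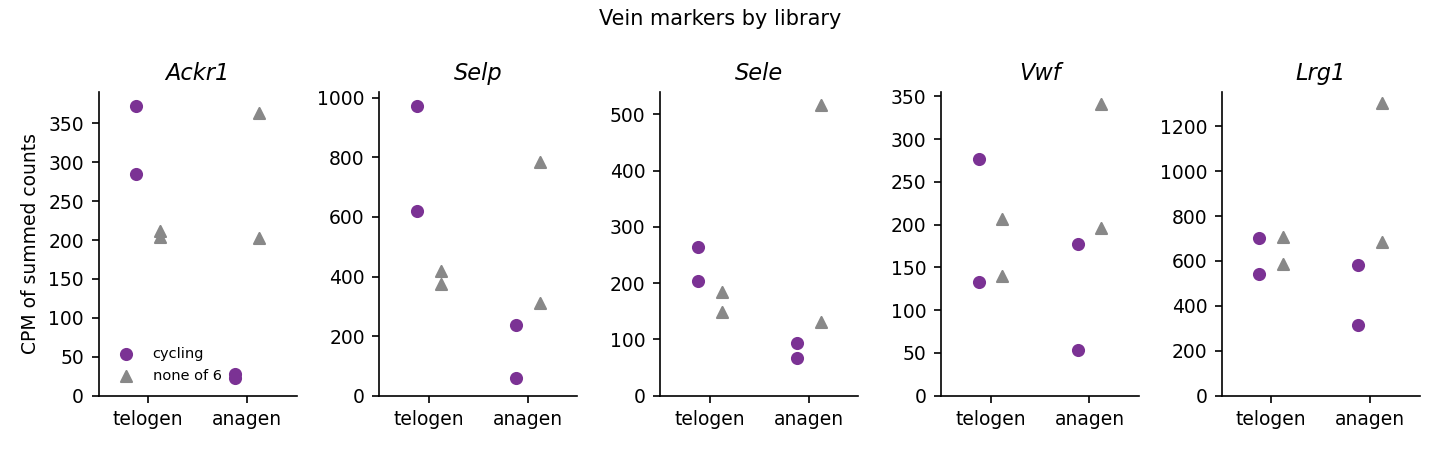
CPM of 5 vein markers in summed counts of each WT library, on linear axes from 0, for cycling ECs (purple circles) and cells with none of the 6 genes (grey triangles), by stage with 2 libraries each. Ackr1 in cycling cells stands at 285 and 373 CPM in telogen and at 27.8 and 23.1 CPM in anagen.

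Other endothelial genes also differed in their stage difference. Cldn5, lower in cycling cells throughout, had a higher stage difference in them (1.47 ± 0.23 (SE), adjusted p = 4.8e-04, edgeR), since it stood lowest in cycling cells in telogen and lower in anagen than in telogen in the others. Plvap, which forms the diaphragms of fenestrated vessels, stood at 2462, 1605, 1381 and 2297 CPM against 1008, 827, 1915 and 2276 CPM. It was higher in cycling cells in both telogen libraries, lower in anagen S1 and about level in anagen S2 (-1.44 ± 0.21 (SE), adjusted p = 1.9e-04, edgeR). Emcn, the sialomucin of capillaries and veins, stood at 575, 636, 413 and 494 CPM against 312, 327, 455 and 514 CPM (-1.10 ± 0.21 (SE), adjusted p = 0.0048, edgeR), again above the other cells in telogen and below them in anagen. Its call was lost without anagen S1 (-1.14), without anagen S2 (-1.11) and without cells that held other markers (-0.79). Angptl4, a lipoprotein lipase inhibitor, stood at 21.0, 81.1, 236 and 119 CPM against 66.0, 81.4, 141 and 40.3 CPM and had a higher stage difference in cycling cells (1.59 ± 0.34 (SE), adjusted p = 0.016, edgeR), though not without telogen S1 (1.05) or anagen S2 (1.3), or by DESeq2 (1.72).

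Markers of other cell types were called in the same test. Rgs5, a pericyte gene, stood at 53.8, 337, 119 and 208 CPM in cycling cells and at 506, 494, 128 and 21.2 CPM in the others, and its stage difference was higher in cycling cells by 2.94. Without likely doublets it was 0.43, and without cells that held other markers 3.13, neither called. Cox4i2, a subunit of cytochrome oxidase, was higher too (2.90), on 35 UMIs in cycling cells, and was not called without likely doublets (1.75), telogen S1 (2.24) or anagen S1 (3.50). Lower were Hba-a1 (-5.54), Hba-a2 (-9.66) and Hbb-bs (-3.84), 3 of 4 globin genes, the perineurial marker Sfrp5 (-4.43) and the mast cell gene Hdc (-2.46). These rest on 5, 6, 20, 21 and 41 UMIs in cycling cells, and lost their calls without anagen S1 (the globin genes, at -8.00, -7.38 and -8.82), telogen S2 (Hba-a1 at 0.98, Sfrp5 at -1.97 and Hdc at -0.77) or anagen S2 (Sfrp5 at -3.40). Sfrp5 was also not called without likely doublets (-0.87), nor Hbb-bs (-1.55) and Hdc (-2.54) without cells that held other markers. Rgs5, Hbb-bs and Hdc are themselves among the markers that define those cells. DESeq2 did not call Rgs5 (3.38), Hba-a1 (-5.00) or Hbb-bs (-4.29). The part of such cells in the stage differences of the endothelial genes was measured only by leaving them out.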

How the data were processed

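The deposited files hold raw UMI counts per gene and barcode, which the authors made from 10x Chromium 3′ libraries (kit v3, NextSeq-500 reads). Per the submitters' processing notes they used Cell Ranger 6.0.1 and Seurat 4.0 with mm10. No normalization was applied and each library was kept apart. There were 22633 barcodes in WT and 4785 in KO, none under 500 UMIs.

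Cells with 200 to 5000 genes and under 10% mitochondrial UMIs were kept, 17270 in WT and 3671 in KO. The members, gene lists and tests were chosen with earlier results of these data known. Genes were named as the first 4 of a list or its largest called changes, as the 10 largest rises and falls in a comparison, or where a count or a sensitivity made a gene stand out. Scrublet doublet scores marked the top 5% of cells per library as likely doublets. Summed counts per library and state went through filterByExpr and TMM scaling into edgeR 4.0.16 (quasi-likelihood F test, Benjamini-Hochberg over all genes tested, fold over 1.3). Library was a block between states. DESeq2 1.42.0 was an alternative. The tests were tried on simulated data, where 57.5% of 200 genes changed 2-fold were recovered between states and 10% in the interaction. Between states the 6 genes and the cell cycle lists were left out of the calls. Each library is 1 mouse, and shares were compared by exact permutation over libraries. S1 and S2 were taken as names that do not pair mice. The deviations of same-numbered libraries correlated at 0.041 in cycling cells and -0.0025 in the others. With 2 libraries per stage such a correlation cannot exclude a pairing.

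The S phase list had promoters for 32 of 44 genes, under the 80% needed, so its promoter check is void. Scripts ran in Python 3.11.15 (scanpy 1.11.5, scipy 1.17.1) and R 4.3.3. Not every gene that the naming rule selects is reported here.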

Additional observations from a re-analysis of the deposited data

Results flagged for a closer look

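Of the 89 genes whose stage difference (anagen against telogen, log2) itself differed between cycling ECs and cells with none of the 6 genes, by the interaction test of edgeR with Benjamini-Hochberg adjustment, those that belong to a gene list used here are given. In cycling cells it was lower for the venous markers Ackr1 (-4.03), Selp (-3.11), Sele (-2.12), Vwf (-1.66) and Lrg1 (-1.17). Lower too were Lyve1, a hyaluronan receptor of lymphatic vessels (-4.11), the endothelial genes Plvap (-1.44), Clec14a (-1.39), Emcn (-1.10) and Eng (-0.98), the apelin receptor gene Aplnr (-1.01) and the D cyclin gene Ccnd1 (-1.03). It was higher for Angptl4 (1.59), Cldn5 (1.47) and Stmn1 (1.04). Of other lists it was higher for the pericyte gene Rgs5 (2.94) and for Cox4i2 (2.90), and lower for the globin genes Hba-a1 (-5.54), Hba-a2 (-9.66) and Hbb-bs (-3.84), for Sfrp5 (-4.43) and for Hdc (-2.46). Lyve1 in cycling cells rests on few UMIs, was at 0 in anagen S1, and was not called without that library (-2.06). Eng was not called without telogen S1 (-0.81), anagen S1 (-1.07) or anagen S2 (-0.93), Aplnr not without telogen S2 (-0.88), anagen S1 (-1.15) or anagen S2 (-0.95), Stmn1 not without telogen S2 (0.82) or anagen S2 (0.70), and Ccnd1 not without telogen S1 (-0.87) or anagen S2 (-0.90). Without cells that held markers of other cell types Eng (-0.78), Aplnr (-0.94), Clec14a (-1.07) and Ccnd1 (-0.53) were not called. DESeq2 did not call Aplnr (-1.02), Stmn1 (1.04), Ccnd1 (-1.03) or Lyve1 (-3.86). What lies behind these differences was not tested.

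Cells outside the comparisons also held the 6 genes. Of 3144 Ptprc+ cells in the 4 WT libraries 369 (11.7%) had at least 3 of them, 139 of 896 in telogen S1, 222 of 1901 in telogen S2, 5 of 269 in anagen S1 and 3 of 78 in anagen S2. Of 4597 cells with neither Pecam1 nor Ptprc 49 (1.07%) had at least 3. These cells enter no comparison. In anagen S2 the share of cells with neither gene, 2 of 1200 (0.167%), lay below the 0.25% that 3 counts give, and that of Ptprc+ cells (3.85%) was equal to its own such limit.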

How the results depend on the processing

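Of 1447 values of 94 named results for single genes under other settings, 1274 kept their direction and their side of the threshold, 138 no longer passed, 21 newly passed and 14 changed sign. The sign changed for Tie1 (0.0795), Rgcc (0.0412), Cd36 (0.148) and Klf2 (0.0731) against cells matched in depth, for Vcam1 (0.32) and Gpihbp1 (-0.35) in the capillary class alone, for Gpihbp1 (-0.95), Tpi1 (-0.20), Gapdh (-0.17), Ndufa5 (-0.12) and Selp (0.22) with the rule on thinned cells, and for Selp without anagen S1 or anagen S2, within a range of -1.12 to 0.13 over the libraries left out. The stage difference of Hba-a1 between states, at 5 UMIs in cycling cells, ranged from -8.00 to 0.98, positive without telogen S2. The cause was not tested.

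Between states 2935 genes were called, 478 with the rule on thinned cells, 1572 at matched depth, 1503 in the capillary class, which tests fewer genes and cells, and 1929 to 2544 with 1 library left out, lowest without anagen S1. Between stages 1 gene was called in cycling cells, 14 by DESeq2, 19 with no filter on low counts, 3 with at least 4 and 33 with at least 2 of the 6 genes, 6 with no upper limit on genes, 18 without likely doublets, 19 with Cdh5 required, 0 in thinned cells and 61 to 186 with 1 library left out. With S1 and S2 as a replicate block it was 72. In cells with none of the 6 genes it was 1141, and 29 to 3133 with 1 library left out. The interaction gave 89 genes, 23 by DESeq2, 220 without likely doublets and 75 to 131 with 1 library left out.

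The stage difference in the share of cycling cells ranged from -1.13 to 0.296 points with 1 library left out, and was 0.278 without likely doublets and 0.279 without cells that held markers of another cell type. That of the S to G2/M ratio was -0.0194, ranged from -0.132 to 0.0928 with 1 library left out, and was -0.147 without likely doublets, 0.00518 with no upper limit on genes and 0.0457 without cells that held other markers. The vein share went to -5.51 with classes from summed UMIs, as a difference between states, and was lower in cycling cells in 4 of 4 libraries. With 1 library left out the class differences kept their sign, at 14.7 to 20.5 points for capillary, -9.28 to -7.12 for artery, 0.156 to 9.77 for vein and -11.2 to -4.90 for lymphatic. The capillary class setting and, for the interaction and the stage comparison in cells with none of the 6 genes, the settings that leave out libraries or cells were chosen after seeing the data. With 29 to 94 cycling cells per library, depth and cell number limit what can be read from low genes.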

Other observations

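Neurotensin (Nts), a peptide gene, was among the largest falls in cycling ECs, at 11.7, 25.4, 41.7 and 19.2 CPM against 638, 1193, 461 and 252 CPM in cells with none of the 6 genes (log2 difference -4.40, edgeR). In the capillary class alone it was -0.65 and not called. Doublet scores were highest in cycling cells of telogen S1, where 14 of 29 were among the top 5%, and lowest in anagen S2, with 2 of 55.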
